A study of Mus musculus with 13 samples.

Results

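The genes described here encode the ligands by which a B cell, when it presents antigen, passes stimulatory or inhibitory signals to T cells, together with the activation markers Cd83 and Cd44. They were chosen by symbol, 5 ligands of the B7 family (Cd80, Cd86, Cd274, Pdcd1lg2 and Icosl) and 2 markers, so 7 of the 23336 gene symbols with counts. All 7 passed the filter on low counts and were among the 13574 genes tested.

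The data are RNA-seq counts from mouse splenic B cells in 13 libraries. Deficient cells had the genotype Regnase-1f/f hCD20TamCre, that is, floxed alleles of Zc3h12a, the gene of the RNA-degrading enzyme Regnase-1, and a Cre recombinase that tamoxifen activates in cells using the CD20 promoter. Control cells were Regnase-1+/+ hCD20TamCre and so carried the same Cre. In each genotype naive, untreated cells and cells treated with anti-IgM F(ab')2 for 4 h, which stimulates the B cell receptor, were profiled, with 4 libraries of control unstimulated cells and 3 of each other group. The labels give no age, no tamoxifen schedule and no culture time for the untreated cells, so stimulation and 4 h of culture cannot be told apart. Cells had been selected by removing those with CD43, and the labels do not say whether libraries came from separate animals, and where they did not, p-values cover only how far these libraries differ.

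T cells read antigen together with a costimulatory signal. CD80 and CD86 bind CD28, which promotes T cell activation, and CTLA-4, which restrains it. PD-L1 (Cd274) and PD-L2 (Pdcd1lg2) bind the inhibitory receptor PD-1, while ICOS ligand (Icosl) binds ICOS, a receptor of follicular helper T cells. CD83 is a surface protein of activated B cells and dendritic cells that stabilizes CD86 and MHC class II at the surface, and CD44 is an adhesion receptor for hyaluronan that rises on activated lymphocytes.

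Totals per library were 21407724 to 33244755 counts, so that 3 counts stood for 0.0902 to 0.140 CPM (counts scaled to the library total). The CPM levels that follow are also scaled by TMM factors. Zc3h12a read 121 to 131 CPM in control and 89.2 to 111 CPM in deficient unstimulated cells, and 147 to 157 CPM in control and 92.6 to 113 CPM in deficient stimulated cells. Counts over the whole gene include reads outside the floxed part, so these values are no direct measure of the deletion. All 12 B cell markers listed were present, with summed levels of 7738 to 8922 CPM in unstimulated and 4339 to 4756 CPM in stimulated libraries. The 12 myeloid markers in the tables summed to 332 to 868 CPM, the 11 dendritic markers to 116 to 250 CPM and the 8 T cell markers to 25.7 to 97.5 CPM, with none of these at 0 in a whole group. Deficient library 1 stood apart within its group, with the highest sums of myeloid, dendritic, neutrophil, erythroid, germinal centre and B-1 or plasma cell markers and the lowest sum of B cell markers (7738 and 4410 CPM) in both states. Its erythroid sums were 1078 and 974 CPM, against 157 and 672 CPM unstimulated and 104 and 418 CPM stimulated in the other deficient libraries. Control libraries reached 635 CPM. Of 10 erythroid markers listed, 7 were in the tables, with Hba-a1 and Hba-a2 at 0 in every library. Xist and Y-linked reads placed control library 1 and deficient libraries 2 and 3 as male and the other numbers as female, so sex and genotype were unevenly combined. The genes below are also expressed by dendritic and myeloid cells, and in bulk RNA fewer cells of a type and less RNA per cell cannot be told apart.

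The PD-1 ligand genes are neighbours. In mm10 with GENCODE vM21, Cd274 lies on the plus strand at chr19:29367455-29388095 and Pdcd1lg2, also on the plus strand, at chr19:29410919-29471161, 22.8 kb apart. Cd80 (chr16:38455561-38496335, plus strand) and Cd86 (chr16:36603869-36666081, minus strand) lie 1.79 Mb apart, and Icosl (chr10:78069302-78083913, plus), Cd83 (chr13:43784775-43803132, plus) and Cd44 (chr2:102811141-102901665, minus) lie alone. An antisense gene, A930007I19Rik, overlaps Pdcd1lg2 over 6412 bases and had 7 to 76 counts per library against 222 to 1882 for Pdcd1lg2. AC119228.1 overlaps Cd274 on the opposite strand over 11055 bases and has no row in the count tables. Whether counting used strand is not stated, so reads of these pairs cannot be told apart.

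Bases upstream of the RefSeq start of the PD-1 ligand genes and of Icosl (GRCm38.p6) are printed because these 3 had the largest stimulation responses of the 7, upward for the first pair and downward for Icosl. Capitals mark matches on either strand to the AP-1 site TGANTCA, the NFAT core GGAAA and the kappaB consensus, motifs of factors that act downstream of the B cell receptor. The windows are chr19:29367188-29367437 (plus strand) for Cd274, chr19:29410669-29410918 (plus strand) for Pdcd1lg2 and chr10:78069118-78069301 (plus strand) for Icosl. The first 2 end at the RefSeq start, and the last, of 184 bases, stops where the GENCODE gene begins, 66 bases short of the RefSeq start.
Cd274: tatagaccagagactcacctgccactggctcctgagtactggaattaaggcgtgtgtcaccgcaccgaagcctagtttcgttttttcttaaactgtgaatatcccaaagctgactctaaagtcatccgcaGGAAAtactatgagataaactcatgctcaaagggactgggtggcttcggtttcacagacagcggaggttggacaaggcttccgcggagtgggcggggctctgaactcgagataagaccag
Pdcd1lg2: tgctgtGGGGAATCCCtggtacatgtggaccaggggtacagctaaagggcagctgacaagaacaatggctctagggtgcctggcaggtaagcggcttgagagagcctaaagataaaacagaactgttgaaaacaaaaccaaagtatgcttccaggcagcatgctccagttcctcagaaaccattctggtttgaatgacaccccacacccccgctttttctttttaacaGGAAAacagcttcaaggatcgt
Icosl: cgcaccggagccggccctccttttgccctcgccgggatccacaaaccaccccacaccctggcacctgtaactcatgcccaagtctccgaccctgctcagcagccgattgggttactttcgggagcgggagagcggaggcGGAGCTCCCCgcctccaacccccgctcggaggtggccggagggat
The Cd274 window held an NFAT core 120 bases before the start, the Pdcd1lg2 window held a kappaB match 244 bases before it and an NFAT core 22 bases before it, and the Icosl window held a kappaB match 111 bases before the RefSeq start. Of 32817 RefSeq promoter windows of 250 bases, 7.25% held the kappaB consensus, 55.6% the NFAT core and 6.75% the AP-1 site. The matches are letters in a window, and no binding was measured. Cd80 had an AP-1 match 42 bases before its RefSeq start, and Cd44 had NFAT cores 205 and 193 bases before its RefSeq start. The Cd80 window, chr16:38458683-38458932, lies inside the GENCODE gene given above, downstream of its GENCODE start. Cd86 and Cd83 have no entry among the promoter windows.

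Read levels per kilobase of exon set the genes in order within a group. In unstimulated control cells Cd83 stood highest, at 183 ± 12.3 CPM per kb (SD, n = 4), followed by Cd86 at 92.4 ± 7.10, Icosl at 51.5 ± 4.12, Cd44 at 32.9 ± 3.05, Cd274 at 17.0 ± 1.04, Pdcd1lg2 at 4.88 ± 0.808 and Cd80 at 1.67 ± 0.419 CPM per kb. No neighbours in this order overlapped between libraries, and unstimulated deficient cells had the same order, from 162 ± 15.1 for Cd83 to 1.13 ± 0.240 for Cd80 (n = 3). Resting cells thus held far more Cd86 than Cd80 reads and more Icosl than PD-1 ligand reads. After stimulation of control cells Cd83 was at 645 ± 7.25 CPM per kb (n = 3), Cd86 at 116 ± 8.89, Cd44 at 95.8 ± 8.67, Cd274 at 90.1 ± 4.81, Pdcd1lg2 at 22.0 ± 5.02, Icosl at 7.29 ± 1.96 and Cd80 at 2.30 ± 0.452 CPM per kb. Cd44 and Cd274 overlapped, and Icosl had passed from the third place to the sixth. In stimulated deficient cells Cd274 (113 ± 7.69) took the second place, ahead of Cd44 (92.9 ± 3.44) and Cd86 (87.1 ± 17.8), which overlapped each other (n = 3).

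**Figure D1:**
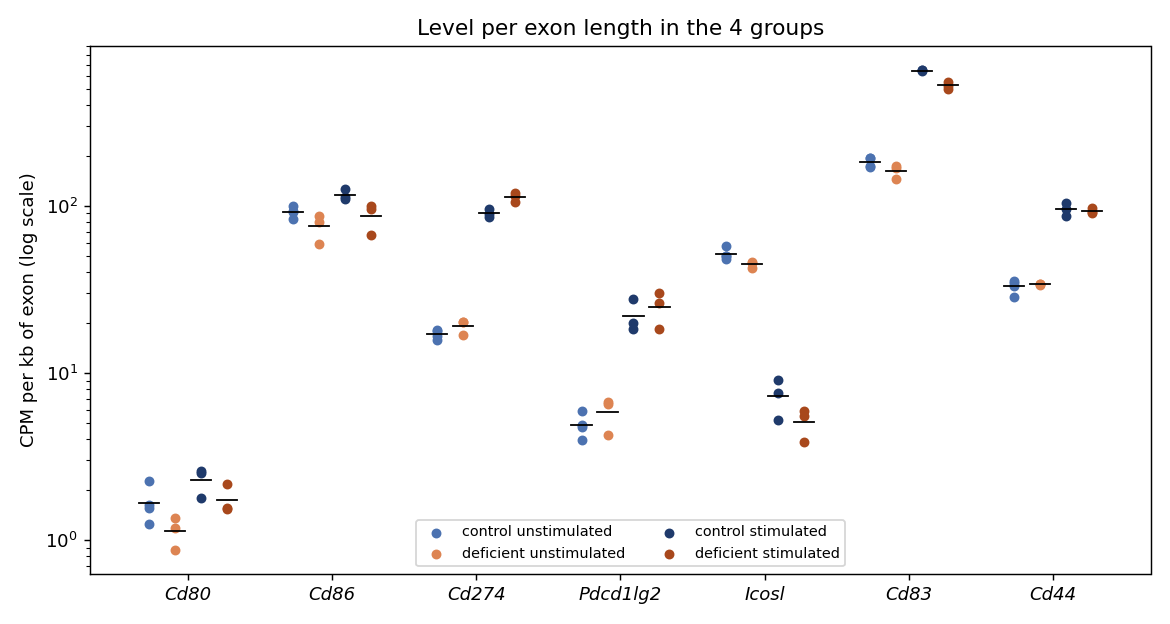
Level of each gene per kilobase of exon (TMM-normalized CPM per kb, log axis) in the 4 groups, with each library as a point and bars for the group means. Cd83 is highest in every group and Cd80 lowest, while Icosl falls from 51.5 to 7.29 CPM per kb and Cd274 rises from 17.0 to 90.1 CPM per kb in control cells.

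What BCR stimulation changed was asked within each genotype. In control cells 5 of the 7 genes were called at an adjusted p under 0.05, 4 higher and 1 lower, where 60.3% of all tested genes were called, 28.5% higher and 31.8% lower. In deficient cells 6 were called, 5 higher and 1 lower, against 57.9% of all genes, 28.3% higher and 29.6% lower. Groups did not overlap for 6 of 7 genes in either genotype, against 63.5% of all genes in control and 62.0% in deficient cells. With 7 genes and most of the transcriptome called, these counts are given as a description. The calls are from a fit that leaves out the pairing of same-numbered libraries. With the library number as a replicate block, Cd86 was also called in both genotypes and no other call of the 7 changed. That fit called 8855 of 13574 tested genes in control and 8900 in deficient cells. The median log2 change of the 7 genes was 1.54 in control and 1.46 in deficient cells, beside -0.13 and -0.11 over all tested genes. The 2 responses were measured against separate unstimulated groups, one per genotype. Marker sums of B cells and of other cells also differed between states in all 6 pairs of same-numbered libraries. T cell markers were 1.602 to 2.25 times as high after stimulation, at 25.7 to 70.1 CPM in unstimulated and 57.8 to 97.5 CPM in stimulated libraries. Stimulated sums were 0.718 to 0.902 of the unstimulated ones for dendritic, 0.707 to 0.988 for myeloid and 0.497 to 0.570 for B cell markers. The part of these shifts in the changes below was not tested.

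**Figure D2:**
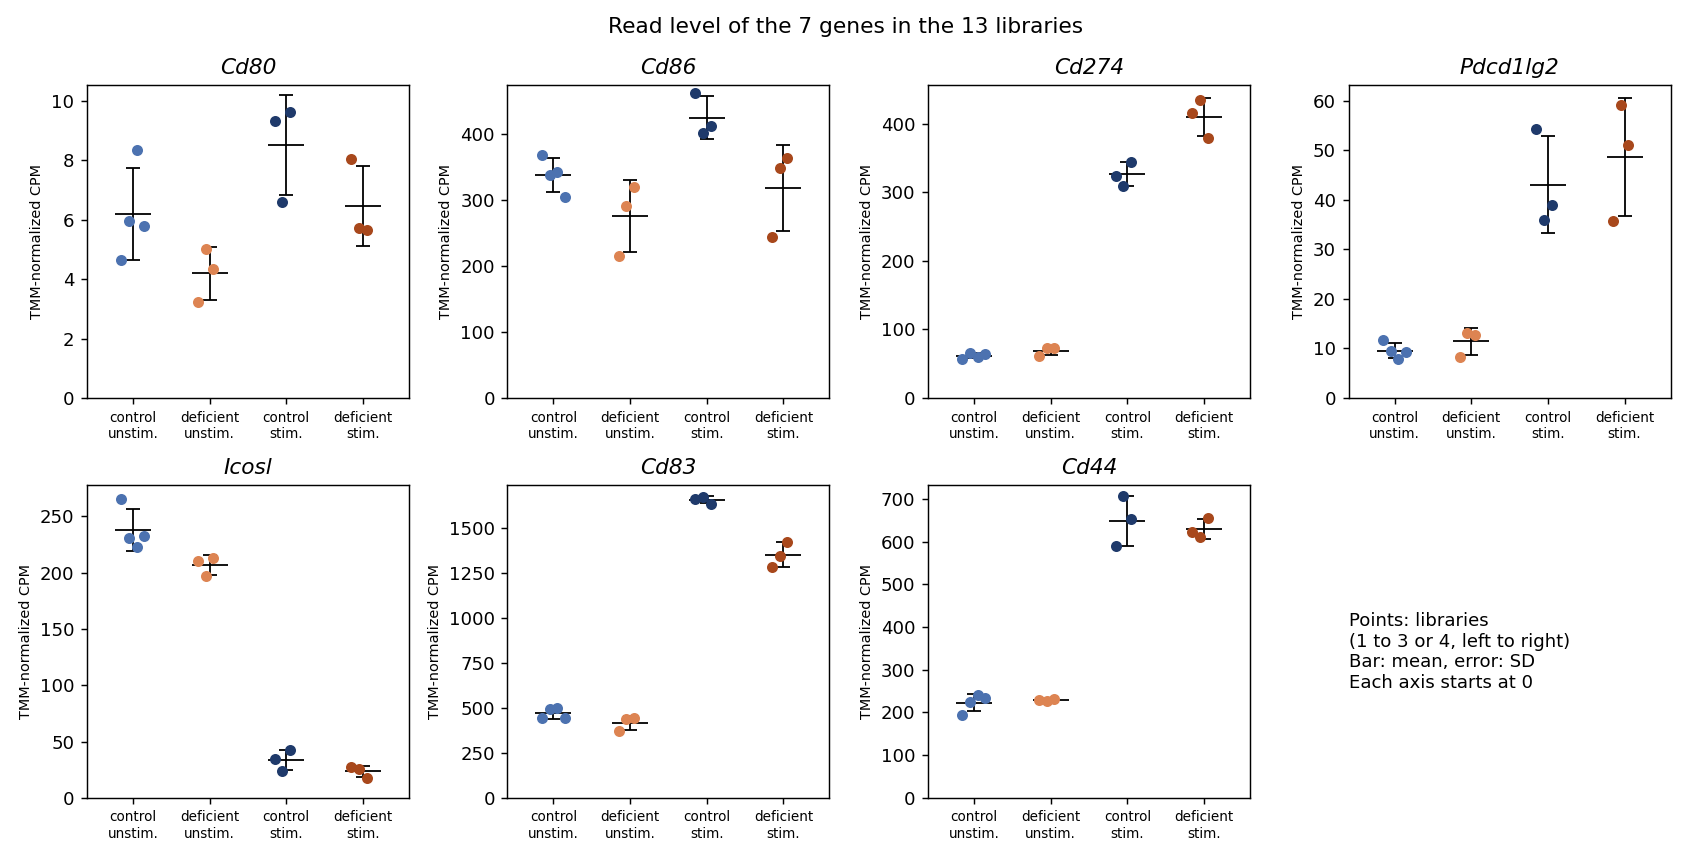
TMM-normalized CPM of the 7 genes in the 13 libraries, with bars for group means and SD (n = 4 for control unstimulated, 3 for the others); each axis starts at 0. Cd274, Pdcd1lg2, Cd83 and Cd44 sit higher and Icosl lower in all stimulated libraries than in any unstimulated one.

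Cd274, encoding PD-L1, had the largest rise. In library order, unstimulated control cells read 57.1, 65.1, 60.0 and 64.4 CPM and stimulated ones 324, 310 and 345 CPM. Deficient cells read 61.4, 72.8 and 73.5 CPM unstimulated and 416, 434 and 379 CPM stimulated. All stimulated libraries lay above all unstimulated ones. Mean levels rose 5.29-fold in control cells (log2 2.40 ± 0.07 SE, adjusted p = 2.1e-12, edgeR) and 5.92-fold in deficient cells (log2 2.57 ± 0.08, adjusted p = 5.0e-12, edgeR).

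Pdcd1lg2, encoding PD-L2, also rose in both genotypes. Control libraries read 11.6, 9.57, 7.81 and 9.25 CPM unstimulated and 54.3, 36.0 and 39.0 CPM stimulated. Deficient libraries read 8.34, 13.1 and 12.8 CPM unstimulated and 35.8, 59.2 and 51.1 CPM stimulated. States did not overlap in either genotype, and stimulated libraries of a genotype were spread widely, from 35.8 to 59.2 CPM in deficient cells. The rise was 4.50-fold in control (log2 2.17 ± 0.22, adjusted p = 3.9e-06, edgeR) and 4.26-fold in deficient cells (log2 2.10 ± 0.24, adjusted p = 1.3e-05, edgeR).

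Icosl was the gene that fell. Control libraries read 266, 230, 223 and 232 CPM unstimulated and 34.9, 24.0 and 42.1 CPM stimulated. Deficient libraries read 211, 197 and 213 CPM unstimulated and 27.3, 25.5 and 17.9 CPM stimulated. The highest stimulated library thus lay below the lowest unstimulated one by a wide margin. Mean levels were 7.07-fold lower in control (log2 -2.82 ± 0.19, adjusted p = 1.6e-07, edgeR) and 8.78-fold lower in deficient cells (log2 -3.13 ± 0.20, adjusted p = 1.2e-07, edgeR).

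The activation markers rose in both genotypes. For Cd83, unstimulated control cells read 442, 497, 498 and 443 CPM and stimulated ones 1665, 1674 and 1638 CPM. Deficient libraries read 373, 436 and 443 CPM unstimulated and 1286, 1347 and 1425 CPM stimulated. Its rise was 3.53-fold in control (log2 1.82 ± 0.07, adjusted p = 7.9e-12, edgeR) and 3.24-fold in deficient cells (log2 1.70 ± 0.08, adjusted p = 5.4e-11, edgeR). Cd44 has 9 transcripts in GENCODE vM21, and the annotation used for counting is not stated. Cd44 rose 2.91-fold in control (log2 1.54 ± 0.07, adjusted p = 6.1e-11, edgeR) and 2.74-fold in deficient cells (log2 1.46 ± 0.08, adjusted p = 4.0e-10, edgeR). Control libraries went from 194 to 241 CPM unstimulated to 589 to 707 CPM stimulated, and deficient ones from 226 to 232 CPM to 610 to 656 CPM.

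The ligands of CD28 and CTLA-4 moved least. Cd86 read 368, 338, 343 and 305 CPM in control unstimulated and 462, 401 and 412 CPM in control stimulated libraries, which did not overlap. The log2 difference was 0.33 ± 0.15 (95% interval -0.00 to 0.66, adjusted p = 0.0793, edgeR). In deficient cells Cd86 read 216, 291 and 320 CPM unstimulated and 244, 348 and 364 CPM stimulated, which overlapped, with a log2 difference of 0.21 ± 0.16 (adjusted p = 0.293, edgeR). Across genes, same-numbered libraries of a genotype deviated together, and within each number Cd86 was higher after stimulation in 3 of 3 pairs of either genotype, by log2 0.25 to 0.33 in control and 0.18 to 0.26 in deficient cells. With the library number as a replicate block, which the pairing of the libraries calls for, Cd86 rose by log2 0.28 ± 0.04 in control (adjusted p = 1.6e-05, edgeR) and 0.21 ± 0.04 in deficient cells (adjusted p = 0.000437, edgeR).

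Cd80, the other CD28 ligand, was the lowest of the genes per kilobase, with 96 to 287 counts per library. Control libraries read 4.64, 5.96, 8.34 and 5.79 CPM unstimulated and 9.33, 6.58 and 9.61 CPM stimulated, which overlapped, with a log2 difference of 0.46 ± 0.22 (adjusted p = 0.0819, edgeR). Deficient libraries read 3.24, 4.998 and 4.35 CPM unstimulated and 8.02, 5.72 and 5.66 CPM stimulated. These did not overlap, and Cd80 rose 1.54-fold (log2 0.62 ± 0.24, adjusted p = 0.0357, edgeR). The rise rested on deficient number 1, whose log2 change was 1.31 against 0.20 and 0.38 in the other pairs. Without both libraries of that number the log2 difference was 0.34 and was not called (adjusted p = 0.296, edgeR). It was also not called without deficient unstimulated library 3 (adjusted p = 0.0624, edgeR). Cd80 was called in deficient cells in 17 of 23 alternatives, among them the library number as a replicate block.

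**Figure D3:**
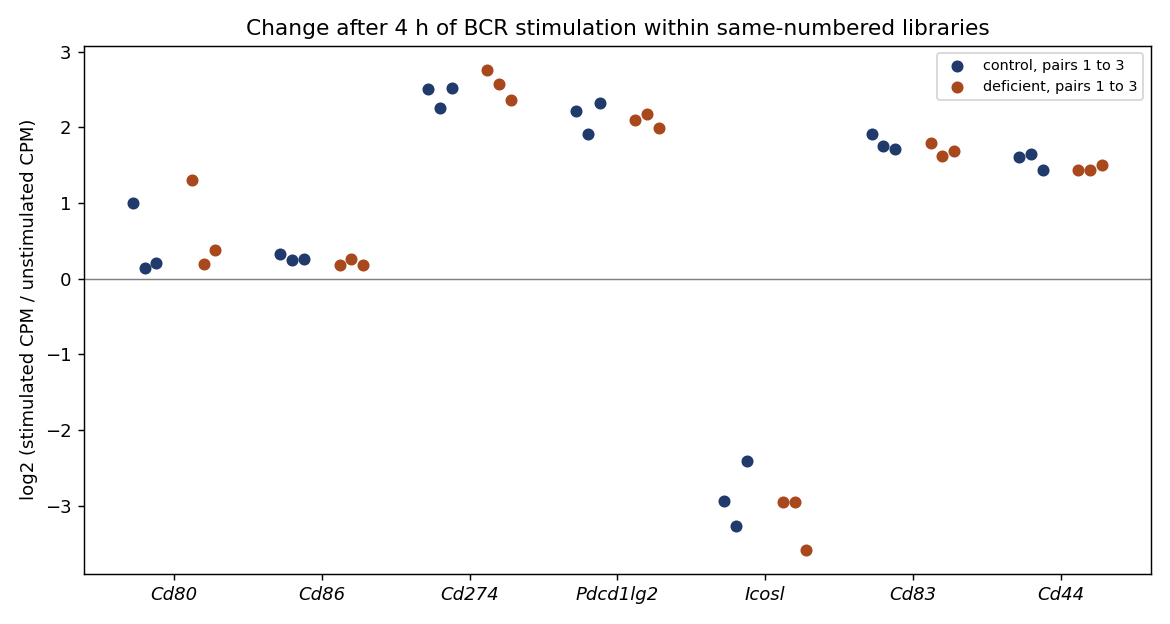
Log2 change after stimulation of each gene within each pair of same-numbered libraries, control and deficient. The pairs of Cd86 lie between 0.18 and 0.33, those of Cd274 between 2.25 and 2.76, and those of Icosl between -3.58 and -2.41, while Cd80 spreads from 0.14 to 1.31.

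What loss of Regnase-1 changed was asked in each state. In unstimulated cells 0 of 7 genes were called with edgeR, where 0.324% of tested genes were called, and 3 had an unadjusted p under 0.05 (Cd80, Cd83 and Cd274). DESeq2 also called 0. Icosl was the one gene whose libraries did not overlap, with deficient libraries at 197 to 213 CPM below control ones at 223 to 266 CPM, against 8.72% of all genes that did not overlap. Its log2 difference was -0.20 ± 0.17 (95% interval -0.58 to 0.18, adjusted p = 0.810, edgeR). The log2 differences of the others were -0.56 ± 0.23 for Cd80, -0.29 ± 0.15 for Cd86, -0.17 ± 0.07 for Cd83, 0.17 ± 0.07 for Cd274, 0.25 ± 0.23 for Pdcd1lg2 and 0.04 ± 0.07 for Cd44. The median of all 7 was -0.17, beside -0.02 over all tested genes.

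In stimulated cells 1 of 7 genes was called, Cd274, where 2.01% of tested genes were called in either direction and 0.751% higher. Libraries did not overlap for 3 of 7 genes, Cd274, Cd86 and Cd83, against 17.8% of all genes. The median log2 difference of the 7 was -0.29, beside 0.00 over all tested genes.

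Stimulated deficient cells held more Cd274 reads than stimulated control cells, 416, 434 and 379 CPM (410 ± 27.9, SD, n = 3) against 324, 310 and 345 CPM (326 ± 17.4, n = 3), a 1.26-fold difference. The lowest deficient library lay above the highest control library. The log2 difference was 0.33 ± 0.08 (95% interval 0.17 to 0.49, adjusted p = 0.0370, edgeR). Deficient libraries also lay above control ones within females (log2 0.34, 1 deficient against 2 control libraries) and within males (log2 0.33, 2 against 1). The call ended when single libraries were left out, with edgeR adjusted p of 0.0578 without control unstimulated library 3, 0.131, 0.155 and 0.0543 without control stimulated libraries 1, 2 and 3, and 0.138 without deficient stimulated library 2. The log2 difference stayed between 0.28 and 0.38 over all alternatives. Pdcd1lg2, the neighbouring PD-1 ligand gene, overlapped between genotypes, with a log2 difference of 0.18 ± 0.23 (95% interval -0.33 to 0.69, adjusted p = 0.855, edgeR).

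Cd83 stood on the edge of the threshold. Stimulated deficient libraries read 1286, 1347 and 1425 CPM and control ones 1665, 1674 and 1638 CPM, which did not overlap. The log2 difference was -0.29 ± 0.07 (95% interval -0.45 to -0.14, adjusted p = 0.0563, edgeR). It was called in 10 of 23 alternatives, among them sex as a term (adjusted p = 0.0198, edgeR) and DESeq2 (adjusted p = 0.00140). Deficient libraries lay below control ones within females (log2 -0.36, from deficient library 1 alone) and within males (log2 -0.26, against 1 control library).

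Cd86 libraries of deficient cells lay at 244, 348 and 364 CPM after stimulation, below the control ones at 401 to 462 CPM, with a log2 difference of -0.41 ± 0.16 (95% interval -0.77 to -0.06, adjusted p = 0.314, edgeR). Deficient library 1, which stood apart in its marker sums, had the lowest Cd86 in both states, 216 and 244 CPM. Its 12 myeloid markers, none at 0, summed to 868 and 614 CPM, against 423 to 531 and 418 to 457 CPM in the other deficient libraries. Its 11 dendritic markers summed to 233 and 184 CPM, against 162 to 205 and 116 to 151 CPM, and the part of these cells in the Cd86 level was not tested. Without both libraries of that number the log2 differences were -0.15 unstimulated and -0.24 stimulated, and neither was called. Deficient libraries lay below control ones in each sex and state, by log2 -0.61 and -0.74 in females and -0.27 and -0.38 in males, unstimulated and stimulated in turn. With sex as a term Cd86 was called lower in deficient cells, by log2 -0.45 unstimulated (adjusted p = 0.0132, edgeR) and -0.55 stimulated (adjusted p = 0.00175, edgeR). That fit compares 1 deficient female number with 2 or 3 control ones, and 2 deficient male numbers with 1. The deficient female was number 1, which stood apart, so the differences within females rest on it alone. Those within males rest on control library 1, the highest control library of Cd86 in both states (368 and 462 CPM).

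Icosl in stimulated cells read 27.3, 25.5 and 17.9 CPM in deficient and 34.9, 24.0 and 42.1 CPM in control libraries, which overlapped. Its log2 difference was -0.51 ± 0.20 (95% interval -0.95 to -0.08, adjusted p = 0.308, edgeR). It was called with DESeq2 (adjusted p = 0.0182) and without control stimulated library 2 (log2 -0.71, adjusted p = 0.0474, edgeR). Cd80 (log2 -0.40 ± 0.24) and Cd44 (log2 -0.04 ± 0.08) overlapped between genotypes and were not called in stimulated cells. The 95% interval was -0.21 to 0.12 for Cd44 and -0.90 to 0.11 for Cd80.

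Whether the response to the BCR differed between genotypes was tested as the difference of both responses. It was called for 0 of 7 genes with edgeR, where 0.00737% of tested genes were called, with 0 members at an unadjusted p under 0.05 and 0 called by DESeq2. With the library number as a replicate block, which the pairing calls for, 0 of 7 were called too, where 68 of 13574 tested genes were called. The intervals given next are from the fit without that block. Log2 differences were 0.16 for Cd274 (95% interval -0.06 to 0.39), -0.12 for Cd83 (-0.34 to 0.09), -0.12 for Cd86 (-0.61 to 0.37), -0.31 for Icosl (-0.88 to 0.26), -0.09 for Cd44 (-0.32 to 0.15), -0.07 for Pdcd1lg2 (-0.79 to 0.64) and 0.16 for Cd80 (-0.53 to 0.85). The call of Cd274 in stimulated cells and its absence in unstimulated cells therefore do not show a different response. Of these intervals those for Pdcd1lg2 and Cd80 were the widest.

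**Figure D4:**
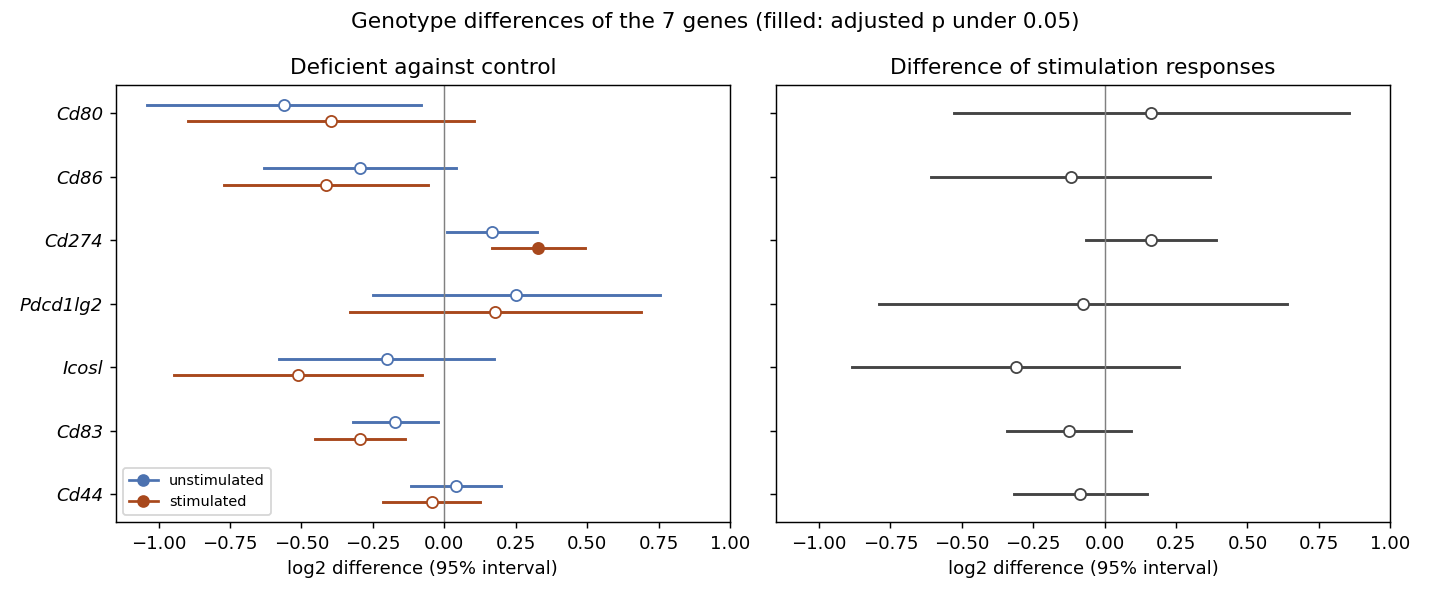
Left, log2 difference of deficient against control cells for the 7 genes in each state, and right, the difference of the stimulation responses, with 95% intervals; filled points have an adjusted p under 0.05. Cd274 in stimulated cells (0.33) is the one filled point, and every interval in the right panel includes 0. Intervals are from the fit without the replicate block.

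Other genes of these pathways were read from 4 lists, whose counts stand beside the same shares of all genes as above (60.3% and 57.9% for the responses, 0.324% and 2.01% for the genotypes). Of the other B7 family members and the receptors, 9 of the 12 in the tables were tested. The others were too low, among them Vtcn1 with 0 counts in every library. In control cells 1 rose after stimulation, 4632428N05Rik, the older symbol of Vsir, which encodes the inhibitory B7 relative VISTA. It went from 41.8 ± 8.18 CPM (n = 4) to 255 ± 7.19 CPM (n = 3, log2 2.61 ± 0.13, adjusted p = 4.3e-09, edgeR), and in deficient cells from 63.5 ± 5.57 to 373 ± 38.5 CPM (n = 3, log2 2.55 ± 0.15, adjusted p = 1.6e-08, edgeR). Its genotype differences were 0.60 ± 0.13 unstimulated and 0.55 ± 0.14 stimulated on the log2 scale (adjusted p = 0.127 and 0.0806, edgeR). Rgmb, whose protein binds PD-L2, fell in control cells from 4.40 ± 0.406 to 2.65 ± 0.326 CPM (log2 -0.74 ± 0.20, adjusted p = 0.00418, edgeR). In deficient cells its log2 change was -0.29 ± 0.21 and was not called (adjusted p = 0.250, edgeR). Ctla4 and Btnl2 were not called, and 0 of the 9 were called between genotypes.

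Of 15 other costimulatory molecules tested, 6 rose and 3 fell in control cells and 5 rose and 3 fell in deficient cells, with a median log2 change of 0.49 in either. Btla, an inhibitory receptor, rose from 231 ± 11.2 to 382 ± 23.2 CPM in control cells (log2 0.73 ± 0.07), and Cd40, the receptor through which helper T cells stimulate B cells, from 87.2 ± 5.30 to 125 ± 8.09 CPM (log2 0.52 ± 0.07). The adhesion ligand gene Icam2 fell by log2 0.56 and Cd47, which signals against phagocytosis, by 0.44. Between genotypes 2 were called, in stimulated cells. Cd48, encoding a ligand of CD2 and CD244, stood at 33.8 ± 2.31 CPM in deficient and 24.8 ± 2.86 CPM in control cells (log2 0.45 ± 0.11, adjusted p = 0.0444, edgeR). Icam1, encoding the ligand of the integrin LFA-1, was lower in deficient cells (log2 -0.93 ± 0.08, adjusted p = 8.6e-06, edgeR). Of the 15 genes these 2 also had the largest log2 changes after stimulation of control cells, in opposite directions. Icam1 rose from 77.4 ± 5.13 to 245 ± 0.367 CPM (log2 1.66 ± 0.07). Cd48 fell from 49.3 ± 4.05 to 24.8 ± 2.86 CPM (log2 -0.99 ± 0.10). In deficient cells their log2 changes were 1.06 for Icam1 and -0.68 for Cd48.

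Of 11 tested genes from a list on the turnover of surface proteins, not all of them acting on these ligands, 4 rose and 4 fell in control cells. In deficient cells 4 rose and 5 fell. The list held 16 symbols, 12 of them with counts. March1 and March8, listed under older and newer symbols, were not among the 11 tested and so could not be read. Adam10, whose protease sheds surface proteins including ICOS ligand, rose from 231 ± 9.01 to 382 ± 34.5 CPM in control cells (log2 0.73 ± 0.07), and Zdhhc3, a palmitoyltransferase of PD-L1, and Cops5, a deubiquitinase of PD-L1, rose by log2 0.63 and 0.60. Hip1r, which directs PD-L1 to lysosomes, fell from 408 ± 27.2 to 159 ± 8.57 CPM (log2 -1.36 ± 0.08). Between genotypes 1 was called, Adam17, another sheddase, at 127 ± 2.55 CPM in deficient and 151 ± 2.73 CPM in control stimulated cells (log2 -0.26 ± 0.05, adjusted p = 0.00673, edgeR). Surface protein was not measured.

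Of 16 early activation markers, 15 rose and 0 fell in either genotype, with a median log2 change of 1.90 in control and 1.73 in deficient cells. Cd69 rose from 106 ± 4.36 to 663 ± 86.0 CPM in control cells, a log2 change of 2.65, while Slc7a5 and Slc3a2, which together form an amino acid transporter, and Nfkbia, an NF-kappaB inhibitor, rose by log2 1.39, 1.42 and 0.85. Between genotypes 1 was called, Tnfaip3, encoding the NF-kappaB inhibitor A20, at 609 ± 66.6 CPM in deficient and 893 ± 28.4 CPM in control stimulated cells (log2 -0.55 ± 0.11, adjusted p = 0.0146, edgeR). In the fit without the replicate block, the difference of responses called 0 genes of the 4 lists. The list genes were not read in the fit with the block, so the count of 0 takes no account of the pairing.

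**Figure D5:**
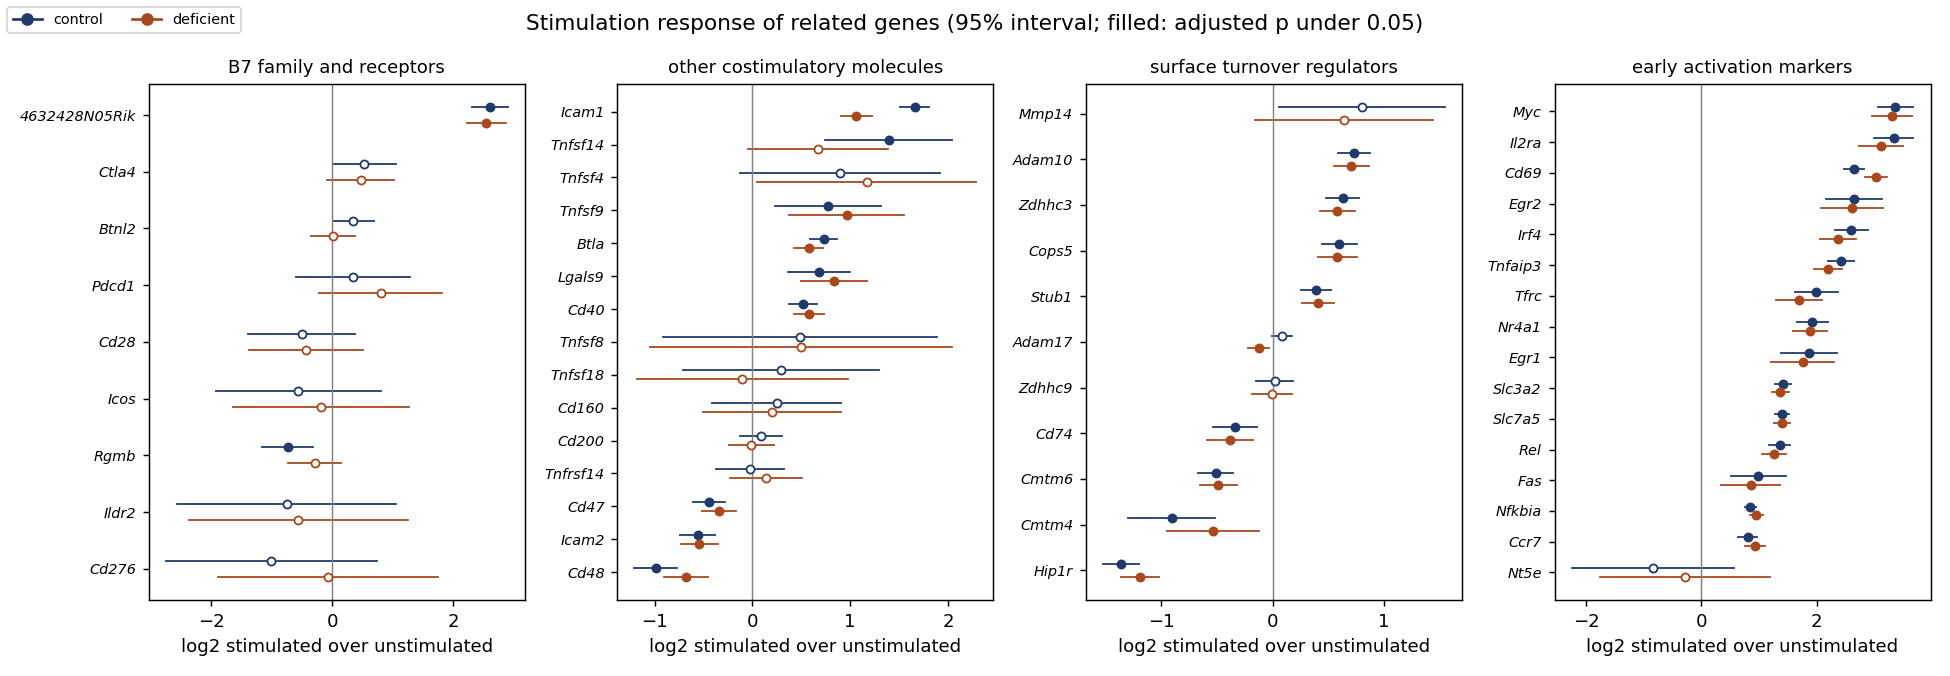
Log2 change after stimulation, with 95% intervals, of the genes tested from the 4 lists, in control and deficient cells; filled points have an adjusted p under 0.05. The B7 relative 4632428N05Rik (Vsir) rises by 2.61 in control cells, and 15 of 16 early activation markers rise in either genotype. Values are from the fit without the replicate block.

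Likeness to other genes was described by Pearson's r of log2 CPM over the 13 libraries among 9083 genes. The libraries share states and genotypes, so genes with like responses to stimulation have a high r. Cd274 was most like Pik3ap1, Ccdc50 and Hivep3, each at r of 0.99 or more. Pdcd1lg2 was most like Tpp1, Ccdc116 and Hnrnpa3, at r of 0.988 to 0.992. Icosl was most like Tmem173, Sh2d3c and Pias3, Cd83 most like Marcksl1, Mreg and Gtf3c4, and Cd44 most like Top1mt, Timm23 and Slc15a3, each at r of 0.99 or more. Cd86 was most like Sun2 (0.97), Smg1 (0.95) and Sec24c (0.95), and Cd80 most like Hmgxb4 (0.87), Gosr2 (0.85) and Gramd3 (0.85).

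Deviations from the group means leave out state and genotype. On these Cd86 was most like Rab3gap1 (0.98), Tgfbr2 (0.98) and Tgfb1 (0.97), Pdcd1lg2 most like Klhl24, Il16 and Limd2 (each 0.96), and Icosl most like Arhgdib (0.96), Crot (0.96) and Abi3 (0.93). Cd274 was most like Kcnk5 (0.92), Taok3 (0.90) and Klhl20 (0.89), Cd83 most like Nop16 (0.96), S1pr3 (0.94) and Bckdha (0.93), Cd44 most like Dusp16 (0.96), Pard3b (0.92) and Bcl2a1b (0.91), and Cd80 most like Commd10 (0.91), Zbp1 (0.87) and Pfkfb3 (0.86). Among the 7 genes, Cd86 deviated together with Pdcd1lg2 (r = 0.84) and Cd83 (r = 0.69), and Cd44 against Pdcd1lg2 (r = -0.60). The neighbours Cd274 and Pdcd1lg2 had r = 0.32. Deficient library 1 was the lowest of its group in Cd86, Pdcd1lg2 and Cd83 in both states, and its part in these values was not tested.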

How the data were processed

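The 13 RNA-seq libraries were made from splenic B cells of mice. Read counts by gene symbol were deposited, made with TopHat, HTSeq and the mm10 build, per the submitters' processing notes, which give no versions. Log2 values were deposited too, with DESeq2 named in those notes; their transformation is not stated. Of 23337 symbols, 1 with a missing cell was left out. The genes and lists were chosen with earlier results of these data known.

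The test was edgeR 4.0.16 under R 4.3.3 (filterByExpr with a minimum count of 10, TMM factors, robust quasi-likelihood fit with a mean per group over all 13 libraries, 9 residual degrees of freedom) over 13574 genes, checked on simulated data. Calls need an adjusted p (Benjamini-Hochberg) below 0.05. Levels, as mean ± SD, are CPM scaled by TMM factors. Exon lengths are the union of GENCODE vM21 exons. Named list members are those called between genotypes and up to 4 others with the smallest p in the control response; like genes are the 3 of highest r whose mean log2 CPM is 2 or more, without predicted models or immunoglobulin and T cell receptor segments. Replicates differed beyond sampling noise (chi-square per gene 7.95 to 35.3). Library totals were 21407724 to 33244755 counts, and floors cover counting error only.

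Library numbers were checked for pairing by the deviations from group means over 9658 genes. Same-numbered libraries of a genotype in both states correlated (control: r of 0.73, 0.49 and 0.57, deficient: r of 0.83, 0.76 and 0.62), so numbers pair the states, and a block on them left 4 residual degrees of freedom. Across genotypes same-numbered libraries gave r of -0.59 to -0.06, so numbers do not pair genotypes.

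There were 23 alternatives: edgeR with upper-quartile or DESeq2 size factors, DESeq2 1.42.0, no filter, a filter of 1 CPM in 3 libraries, the compared groups alone, sex as a term, the replicate block, limma 3.58.1 on the deposited log2 values, each library left out in turn, and both libraries of deficient number 1 left out.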

Additional observations from a re-analysis of the deposited data

How the results depend on the processing

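Of 797 values of the 7 genes under the alternatives, 0 called values changed sign, 752 kept their side of the threshold, 11 were no longer called and 34 became called. Values near 0 that were not called changed sign under some alternatives for Cd44 and Pdcd1lg2 between genotypes and for Pdcd1lg2, Cd80 and Cd86 in the difference of responses. For deficient against control unstimulated cells, sex as a term called 1 gene (Cd86) in place of 0. For stimulated cells the count of 1 gene became 2 with DESeq2's size factors, upper-quartile factors, no filter, only the groups compared, limma on the deposited log2 values and without both libraries of deficient number 1, and 3 with DESeq2 and with sex as a term. Leaving out 1 library at a time gave 0 to 2 genes in stimulated cells, with 0 without control unstimulated 3, control stimulated 1 and 3 or deficient stimulated 2, and 2 without deficient unstimulated 1. In these fits it gave 0 genes in unstimulated cells and for the difference of responses, 5 to 7 for the control response and 5 to 6 for the deficient response. With the library number as a replicate block, 2 genes were called in stimulated cells, Cd274 (adjusted p = 0.0484, edgeR) and Cd83 (adjusted p = 0.0271, edgeR), although numbers do not pair genotypes. The block on the pairs called Cd86 in both responses and changed no other call of the 7 genes in the responses or their difference, although it called 68 in place of 1 of all genes in the difference (DESeq2 called 48). Over all genes, the count for unstimulated cells was 17 to 198 in place of 44 and that for stimulated cells 129 to 532 in place of 273, highest with sex as a term and DESeq2 and lowest without single libraries. Cd80 in deficient cells lost its call after stimulation with upper-quartile factors (adjusted p = 0.0713, edgeR), with only the groups compared (0.0506), without deficient unstimulated 1 (0.140) or 3 (0.0624) and without deficient stimulated 1 (0.120). It became called in control cells in 7 alternatives, and Cd86 in 9 for control and 4 for deficient cells. The causes were not tested. Depth limits Cd80 most, at 96 to 287 counts per library. With 3 or 4 libraries a group and 1 or 2 of each sex in most, sex and genotype are partly confounded.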
